A study of Mus musculus with 10 samples.

Results

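The Hedgehog pathway was followed in 9 genes: the ligand Shh, the receptor Ptch1, the co-receptor Gas1, the ligand trap Hhip, the signal transducer Smo, the inhibitor Sufu and the transcription factors Gli1, Gli2 and Gli3. They were chosen by name, with earlier results of these data known. All 9 were found among the 19096 genes that could be paired with a probe of the array. Each gene stood on the probe that was brightest on average over the 10 arrays. Every one of these probes was bright enough to be tested.

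The samples were 5 wild type (Lkb1f/f) lungs, here WT, and 5 lung squamous cell carcinomas, here SCC, from CCSPiCreLkb1f/f mice. All 10 samples are labelled as strain B6.129, aged 13 months and without treatment. Both groups carried the floxed Lkb1 alleles, and the SCC mice also carried the CCSP-driven Cre, which deletes Lkb1 (Stk11, a tumour suppressor kinase) in airway epithelial cells. RNA came from the whole lung in WT and from the whole lung tumour in SCC, so each sample mixed epithelium with stroma, vessels and leukocytes, and the groups differ in tissue as well as in genotype. Expression was read on single-colour Agilent whole mouse genome arrays, and the values below are quantile-normalized log2 intensities.

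Hedgehog signalling works by release of inhibition. A ligand (Shh, Ihh or Dhh) binds Ptch1 with the help of the co-receptors Gas1, Boc and Cdon, and bound Ptch1 no longer holds back Smo. Smo then acts in the primary cilium, where it frees the Gli proteins from Sufu, and the Gli proteins switch target genes on. Gli1, Ptch1 and Hhip are themselves targets, and their transcripts are the usual readout of the pathway. In the lung, epithelial cells make Shh and the mesenchyme under them responds, which shapes branching during development.

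A first look at the arrays bears on what follows. The squamous markers Krt5, Krt14 and Trp63, well above background on all 5 WT arrays, were higher in SCC, Krt5 by 11.35 (adjusted p = 2.14e-07) and Trp63 by 7.44 (adjusted p = 2.13e-07) log2 units. The other squamous markers, Dsg3, Sprr1b and Ivl, were well above background on 0, 0 and 3 of 5 WT arrays and were tested through SCC alone. SCC replicate 2 had a mean squamous marker level of 9.37, while the other SCC arrays lay at 12.45 to 12.77. That mean includes Dsg3 (5.57 on SCC replicate 2, at least 10.13 on the others) and Sprr1b (1.855, at least 8.94). On the same array Krt5 lay at 15.60 (others at least 17.45), Krt14 at 14.34 (at least 17.09) and Trp63 at 12.13 (at least 12.82). SCC replicate 2 correlated with the WT arrays at 0.940 to 0.946 across probes, against at most 0.905 for the others. SCC replicate 5 had 90.2% of its probes well above background, against 71.0% to 74.5% on the other 9 arrays. Xist was under 5 log2 units on 3 arrays (WT replicates 2 and 3 and SCC replicate 2), and SCC replicate 5 had both Xist at 13.75 and the Y-linked Ddx3y at 8.34. Several results are therefore also given without 1 or both of SCC replicates 2 and 5.

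Of the 9 genes, 1 rose (Smo) and 1 fell (Gas1) at an adjusted p below 0.05 (limma, Benjamini-Hochberg over 30374 tested probes), which is 22.2% of them. Among all tested probes, 49% passed in either direction (22.4% higher and 26.6% lower), and among the 15586 genes tested on their brightest probe, 53.9% passed (25.5% higher and 28.4% lower). The groups did not overlap for Smo and Gas1, 2 of the 9 genes, beside 37.4% of probes and 41.4% of genes. Only Gas1 changed by 2-fold or more, against 22.9% of probes. The median difference of the 9 genes was -0.19 log2 units, beside -0.04 over all genes on their brightest probe. The transcripts that serve as the readout of the pathway, Gli1, Ptch1 and Hhip, did not pass the test. In these tissues fewer cells of a type and less RNA per cell cannot be told apart.

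**Figure D1:**
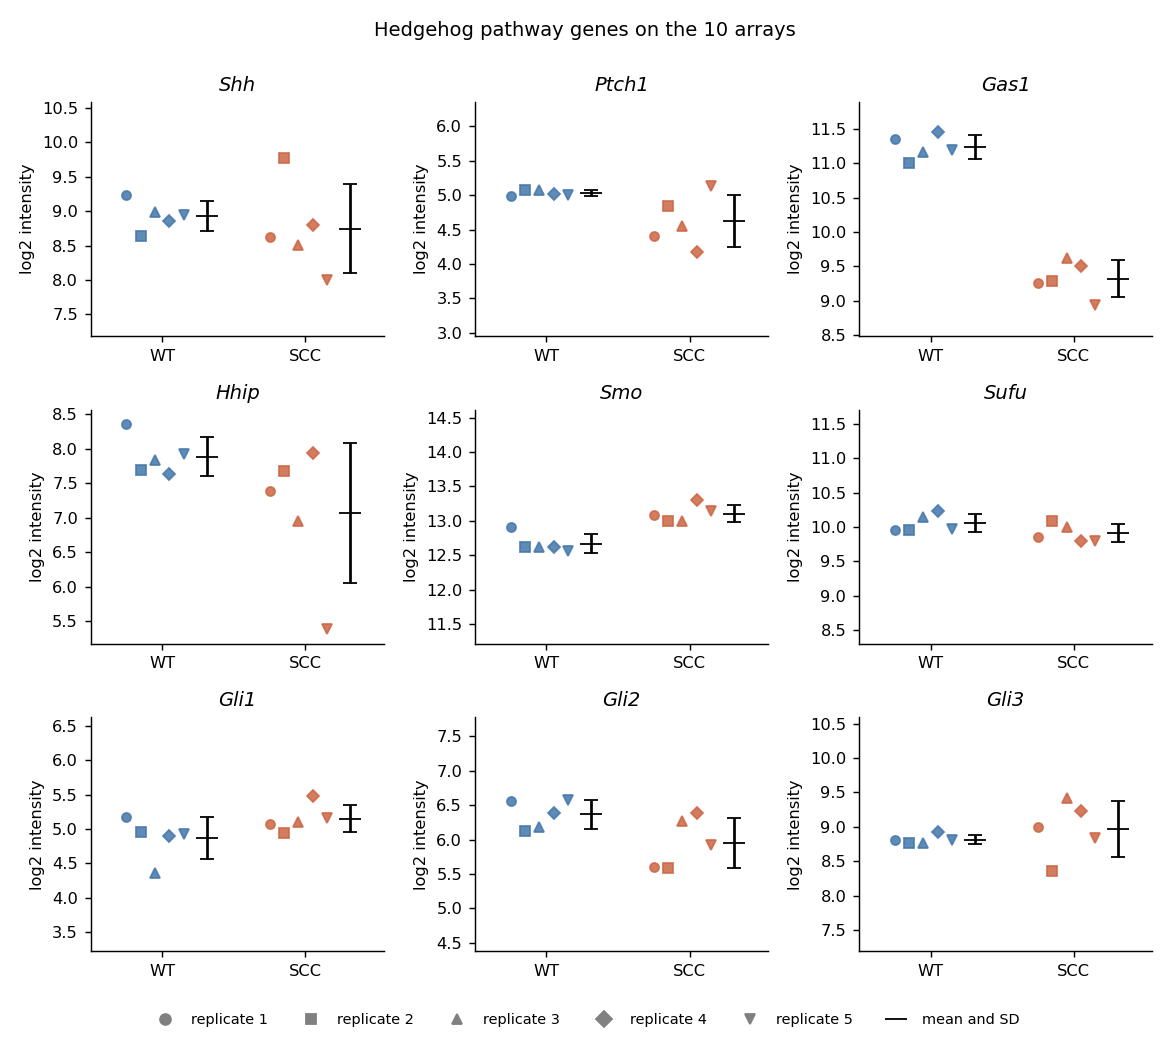
Log2 intensity (y axis) of the 9 Hedgehog genes on each array, 5 WT in blue and 5 SCC in orange. Each marker shape is 1 replicate number, the bars are the mean and SD, and all panels span at least 3.4 log2 units. Gas1 and Smo are the genes whose groups do not overlap. SCC replicate 5 is the low point of Hhip at 5.39.

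The promoters of the genes whose groups differed are shown first, with that of Gli2, the one promoter that held a short match to the Gli binding motif. The Gli motif is GACCACCCA, and its shorter core ACCACCC lies within it. Both were sought on both strands of the 250 bases before the start of each gene (RefSeq, build GRCm38.p6), which the table gave for 7 of the 9 genes. GACCACCCA was in 0 of 7, beside 74 of all 32851 promoters (0.225%). ACCACCC was in 1 of 7, that of Gli2, beside 1289 of all promoters (3.92%). In Gli2 the match lies on the opposite strand, reads GGGTGGT and begins 205 bases before the start of the gene. It is printed in capitals, and a match of letters is not a binding site. The sequences run 5′ to 3′ on the strand of the gene, at chr13:60177536-60177785 (minus strand) for Gas1, chr6:29735247-29735496 (plus strand) for Smo and chr1:119053620-119053869 (minus strand) for Gli2. Their GC contents were 58.8%, 68.4% and 67.2%, beside a median of 52.4% over all promoters.
Gas1: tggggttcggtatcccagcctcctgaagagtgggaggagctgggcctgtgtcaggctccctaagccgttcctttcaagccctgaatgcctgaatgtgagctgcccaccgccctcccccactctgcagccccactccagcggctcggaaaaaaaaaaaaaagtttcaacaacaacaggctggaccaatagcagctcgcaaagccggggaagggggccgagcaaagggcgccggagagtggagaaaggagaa
Smo: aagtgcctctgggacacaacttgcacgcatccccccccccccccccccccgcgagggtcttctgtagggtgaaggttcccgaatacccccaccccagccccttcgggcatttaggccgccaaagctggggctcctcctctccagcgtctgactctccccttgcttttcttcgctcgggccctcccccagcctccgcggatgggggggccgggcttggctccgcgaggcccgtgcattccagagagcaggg
Gli2: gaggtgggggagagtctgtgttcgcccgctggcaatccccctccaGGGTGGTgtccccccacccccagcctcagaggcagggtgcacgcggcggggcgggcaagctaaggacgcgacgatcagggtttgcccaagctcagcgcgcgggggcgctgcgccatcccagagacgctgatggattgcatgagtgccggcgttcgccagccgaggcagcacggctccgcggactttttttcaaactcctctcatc

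Shh, the ligand made by airway epithelium, did not differ between the groups beyond their spread. Its levels on WT replicates 1 to 5 were 9.23, 8.64, 8.98, 8.85 and 8.95. On SCC replicates 1 to 5 they were 8.62, 9.77, 8.52, 8.80 and 8.0. The SCC samples held both the highest and the lowest values, SCC replicate 2 and SCC replicate 5. The difference was -0.19 ± 0.28 log2 units (SE, n = 5 and 5, limma, adjusted p = 0.603), with a 95% confidence interval from -0.82 to 0.45. It was -0.45 (adjusted p = 0.0562) without SCC replicate 2, close to 0 (-0.002) without SCC replicate 5 and -0.28 (adjusted p = 0.0957) without both.

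Of the other ligands, Dhh passed and Ihh did not. Dhh, known from testis and peripheral nerve, fell 4.25-fold, from 10.24 ± 0.21 to 8.15 ± 0.42 (SD, n = 5 each; limma, adjusted p = 4e-05), and its groups did not overlap. Ihh, the ligand of growing cartilage, lay at 4.31 to 5.02 in WT and at 3.75 to 4.43 on 4 SCC arrays, while SCC replicate 2 stood at 7.50. Ihh was well above background on all 5 WT arrays but on only 2 of 5 SCC arrays (replicates 2 and 5). Its difference over all arrays was 0.11 log2 units (limma, adjusted p = 0.901), and SCC replicate 2 alone decided the direction. Without that array it was -0.58, but 3 of the 4 remaining SCC arrays were not well above background, so Ihh was then tested only through WT, where it is high, and no call is drawn from it.

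A ligand must be acylated and released before it can act. Of 5 measured genes for these steps, 2 fell and 3 did not pass (40% passed, beside 53.9% of all genes). Scube2, a secreted protein that carries lipid-modified ligand away from the cell, showed the largest difference among all the pathway genes listed here, 11.7-fold lower. It lay between 11.29 and 11.72 in WT and at 8.41, 9.61, 6.81, 7.40 and 7.76 on SCC replicates 1 to 5 (limma, adjusted p = 0.000168). Every SCC value was below every WT value, with SCC replicate 2 the nearest to WT. Disp2 fell 1.74-fold (adjusted p = 0.0104), or by 0.80 log2 units. It did not pass with slide fitted as a block (-0.39, adjusted p = 0.548) or without the 3 arrays of low Xist (-0.77, adjusted p = 0.0759). The acyltransferase Hhat (-0.12 log2 units, adjusted p = 0.383), the ligand exporter Disp1 (0.16, adjusted p = 0.573) and Scube1 (-0.44, adjusted p = 0.0714) did not pass. Without SCC replicates 2 and 5, Scube1 (-0.53, adjusted p = 0.0165) and Hhat (-0.26, adjusted p = 0.0235) passed as lower. Scube1 also passed without SCC replicate 2 alone (-0.58, adjusted p = 0.00819) and under normexp background correction (-0.38, adjusted p = 0.037). The second Hhat probe went the other way (0.51, adjusted p = 0.245), and the other Scube1 probes did not pass (-0.11 and -0.55). Scube3 is not analysed here.

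Gas1, a membrane-anchored co-receptor that presents ligand to Ptch1, showed the largest difference of the 9 genes. Its WT levels were 11.35, 11.01, 11.16, 11.45 and 11.20. Its SCC levels were 9.26, 9.29, 9.62, 9.51 and 8.93. The groups lay apart with no overlap, and SCC replicates 2 and 5 fell with the rest. The mean dropped from 11.23 ± 0.17 to 9.32 ± 0.27 (SD, n = 5 each), a difference of -1.91 ± 0.14 log2 units (SE) or 3.75-fold lower (limma, adjusted p = 1.08e-05). The exact two-sided permutation test gave p = 0.00794, the smallest that 5 arrays against 5 can give. Gas1 passed under each omission of 1 array, with differences of -1.98 to -1.81.

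The co-receptors Boc and Cdon, which bind ligand beside Gas1, moved the same way, so that 3 of 3 co-receptors were lower in SCC, beside 28.4% of all genes. Boc lay at 9.99 to 10.21 in WT and at 8.66, 9.47, 8.60, 8.64 and 8.01 in SCC replicates 1 to 5, and was 2.67-fold lower (limma, adjusted p = 0.000638). Cdon lay at 9.80 to 10.17 in WT and at 9.08, 8.97, 8.69, 9.38 and 8.05 in SCC, and was 2.21-fold lower (adjusted p = 0.00221). Neither had groups that overlapped. A second probe for Cdon differed by only 0.03 log2 units (adjusted p = 0.882), so the fall in Cdon rests on 1 of its 2 probes. Gas1 and Boc had 1 probe each. When slide was fitted as a fixed block, Gas1 still passed (-1.81, adjusted p = 0.0107), while Boc (-1.13, adjusted p = 0.0842) and Cdon (-1.26, adjusted p = 0.0989) did not.

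Ptch1, the receptor that inhibits Smo and a target of the pathway, was dim on this array. Its WT levels were 4.99, 5.08, 5.07, 5.01 and 5.00, and its SCC levels were 4.40, 4.84, 4.56, 4.18 and 5.13. On 4 SCC arrays Ptch1 was under every WT value, on SCC replicate 5 it was above them all, and on SCC replicate 4 it was not well above background. The difference of -0.41 ± 0.17 log2 units (SE) missed the threshold (limma, adjusted p = 0.0646; exact permutation p = 0.0476). It passed without SCC replicate 5 (-0.54, adjusted p = 0.00684), without SCC replicate 2 (-0.46, adjusted p = 0.0441) and without both (-0.65, adjusted p = 0.000366). It was -0.07 under 75th percentile scaling and -0.08 under normexp background correction.

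Gpc3, a glypican that binds ligand and competes with Ptch1, fell 6.73-fold, from 13.11 ± 0.30 to 10.36 ± 0.47 (SD, n = 5 each; adjusted p = 1.99e-05). Lrp2, an endocytic receptor for Shh, did not pass (-0.18 log2 units, adjusted p = 0.245). Of Boc, Cdon, Gpc3 and Lrp2, 3 of 4 passed, all lower (75%, beside 28.4% of all genes that were lower).

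Hhip, a membrane protein that binds and sequesters ligand and is induced by the pathway, was more variable in SCC than in WT. Its WT levels were 8.36, 7.69, 7.84, 7.64 and 7.92, and its SCC levels were 7.38, 7.68, 6.95, 7.94 and 5.39. SCC replicates 2 and 4 lay within the WT range and SCC replicate 5 far below it. The difference was -0.82 ± 0.43 log2 units (SE; limma, adjusted p = 0.139), and -0.40 without SCC replicate 5 or -0.46 without SCC replicates 2 and 5. It was -0.46 under normexp background correction and -0.49 under 75th percentile scaling, over all arrays. On the second Hhip probe the groups did not overlap (7.38 to 7.78 in WT, 4.16 to 7.23 in SCC), with a difference of -1.27 (adjusted p = 0.0654). Neither probe passed.

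Smo, the transducer that Ptch1 holds back, was the gene that rose. Its WT levels were 12.91, 12.62, 12.62, 12.63 and 12.56. Its SCC levels were 13.08, 13.00, 13.00, 13.30 and 13.15. Every SCC value was above every WT value, though WT replicate 1 came within 0.08 log2 units of the lowest SCC array. The rise was 0.44 ± 0.10 log2 units (SE), or 1.35-fold with a 95% confidence interval from 1.16 to 1.58 (limma, adjusted p = 0.00549; exact permutation p = 0.00794). A second Smo probe lay at 4.33 to 4.96 in WT and at 5.39 to 6.51 in SCC. It was well above background on 3 of 5 WT arrays and on 5 of 5 SCC arrays, so it was tested only through the group where it is high and adds nothing to the rise. Smo kept its size but not its call once slide was a fixed block (0.46, adjusted p = 0.127).

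Smo works from the primary cilium, and 5 of 8 genes of this step passed (62.5%, beside 53.9% of all genes), 1 higher and 4 lower. Evc (2.62-fold, limma, adjusted p = 0.000525) and Evc2 (2.15-fold, adjusted p = 0.0119), partner proteins that relay the signal from Smo at the base of the cilium, were both lower in SCC. Evc2 lay between 12.30 and 12.47 in WT, and SCC replicate 2 at 12.47 fell in with WT while the other SCC arrays lay between 10.56 and 11.28. The Evc2 difference was -1.10 log2 units, and -1.40 (adjusted p = 3.66e-05) without SCC replicate 2. The other probes for Evc differed by -0.55 (adjusted p = 0.35) and 0.22 (adjusted p = 0.81), so its fall rests on 1 of 3 probes. Kif7, the kinesin that regulates Gli proteins at the tip of the cilium, was 2.41-fold lower (adjusted p = 0.00731), a difference of -1.27 log2 units that was -0.76 under normexp background correction and -0.95 without SCC replicates 2 and 5 (adjusted p = 0.000545).

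Arl13b, a small GTPase of the ciliary membrane, varied least of these across the SCC arrays, lying at 10.83 to 11.33 in WT and at 10.25 to 10.31 on all 5 SCC arrays (1.85-fold lower, limma, adjusted p = 0.000114). Its other probes fell as well, by 0.77 and 0.76 log2 units (adjusted p = 0.00043 and 0.00285). Kif3a, a motor for transport within the cilium, rose 1.39-fold (adjusted p = 0.0158), with 0.16 log2 units on its second probe (adjusted p = 0.283). Gpr161 (0.20 log2 units, adjusted p = 0.418), Tulp3 (-0.28, adjusted p = 0.125) and Ift88 (-0.44, adjusted p = 0.0974) did not pass. Without SCC replicates 2 and 5, Gpr161 passed as higher (0.46, adjusted p = 0.0102) and Ift88 as lower (-0.62, adjusted p = 0.0359). Gpr161 also passed without SCC replicate 5 alone (0.38, adjusted p = 0.0356) and under 75th percentile scaling (0.54, adjusted p = 0.0367), and shrank to 0.06 without SCC replicate 3. Motile cilia are a separate structure, and 1 of 5 markers of cells that bear them passed as lower (Tekt1), beside 28.4% of all genes. The differences of the 5 ran from -1.36 to -0.51 log2 units, with a median of -1.05.

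Sufu, which tethers Gli proteins in the cytoplasm, gave different answers on different probes. On its brightest probe the WT levels were 9.96, 9.96, 10.15, 10.23 and 9.97, and the SCC levels were 9.86, 10.08, 10.01, 9.79 and 9.79. These overlapped, with a difference of -0.15 ± 0.10 log2 units (SE; limma, adjusted p = 0.23). On both other probes every SCC value was above every WT value, by 1.20 (adjusted p = 0.0125) and 0.63 (adjusted p = 0.00149). No direction for Sufu as a gene is drawn from probes that disagree.

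Of the 9 kinases and turnover genes that process Gli proteins, 4 passed (44.4%, beside 53.9% of all genes), all lower. These were Stk36 (1.81-fold, limma, adjusted p = 0.0071), the protein kinase A subunit Prkacb (1.55-fold, adjusted p = 0.0153), and the ubiquitin ligase adaptors Btrc (1.50-fold, adjusted p = 0.0233) and Spop (1.41-fold, adjusted p = 0.00261), which mark Gli proteins for processing or decay. With slide fitted as a block Stk36 was -1.42 log2 units, against -0.85 without it, and passed (adjusted p = 0.0278). Btrc, at -0.58 log2 units, was then -0.29 and did not pass (adjusted p = 0.595). Btrc also missed the threshold without WT replicate 2, 3 or 4, at differences of -0.57 to -0.56, without the 3 arrays of low Xist (-0.63, adjusted p = 0.0688) and under 75th percentile scaling (-0.32). SCC replicate 5 was the low array for Btrc, which was -0.41 without it and -0.46 without SCC replicates 2 and 5, and passed in both cases (adjusted p = 0.0063 and 0.00181). Under normexp correction Btrc was -0.32 and passed (adjusted p = 0.0225). Prkaca, Gsk3b, Csnk1a1, Ulk3 and Cul3 did not pass, with differences from -0.17 to 0.20 log2 units, though Prkaca passed as lower under normexp correction (-0.20, adjusted p = 0.0341).

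Gli1, the activator and best known target of the pathway, was dim and did not differ beyond its spread. Its WT levels were 5.18, 4.96, 4.37, 4.90 and 4.93, and its SCC levels were 5.07, 4.94, 5.11, 5.48 and 5.16. The groups overlapped, and WT replicate 3 was the lowest array. The difference was 0.28 ± 0.16 log2 units (SE; limma, adjusted p = 0.167), with a 95% confidence interval from -0.07 to 0.64, or 0.95-fold to 1.56-fold. Under 75th percentile scaling the difference was 0.67 ± 0.41 (SE), which is wider and did not pass either (adjusted p = 0.202). It was 0.08 under normexp background correction and 0.16 without WT replicate 3.

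Gli2, the main activator upstream of Gli1, lay at 6.56, 6.13, 6.18, 6.39 and 6.57 in WT and at 5.60, 5.59, 6.27, 6.38 and 5.92 in SCC. SCC replicates 1, 2 and 5 were under every WT array and the others within the WT range. The difference of -0.41 ± 0.18 log2 units (SE) did not pass (limma, adjusted p = 0.0869), and did so only without SCC replicate 4 (-0.52, adjusted p = 0.0389). It was -0.13 under 75th percentile scaling, -0.15 under normexp background correction and -0.75 with slide fitted as a block. Its second probe was well above background on 3 of 10 arrays and was not tested.

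Gli3, the main repressor form, had WT levels of 8.80, 8.77, 8.77, 8.92 and 8.81, and SCC levels of 9.0, 8.36, 9.42, 9.23 and 8.84. Gli3 was above all WT arrays on SCC replicates 1, 3 and 4 and below them all on SCC replicate 2. The difference of 0.16 ± 0.18 log2 units (SE) did not pass (limma, adjusted p = 0.487). It shrank to 0.04 without SCC replicate 3 and to 0.09 without SCC replicate 4. Without SCC replicates 2 and 5 it was 0.40 (adjusted p = 0.00796), and 4 of the 9 genes then passed, 2 higher (Smo, Gli3) and 2 lower (Gas1, Ptch1), which is 44.4% beside 66.5% of all genes tested on those arrays. The second Gli3 probe rose well above background on 0 of 10 arrays.

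**Figure D2:**
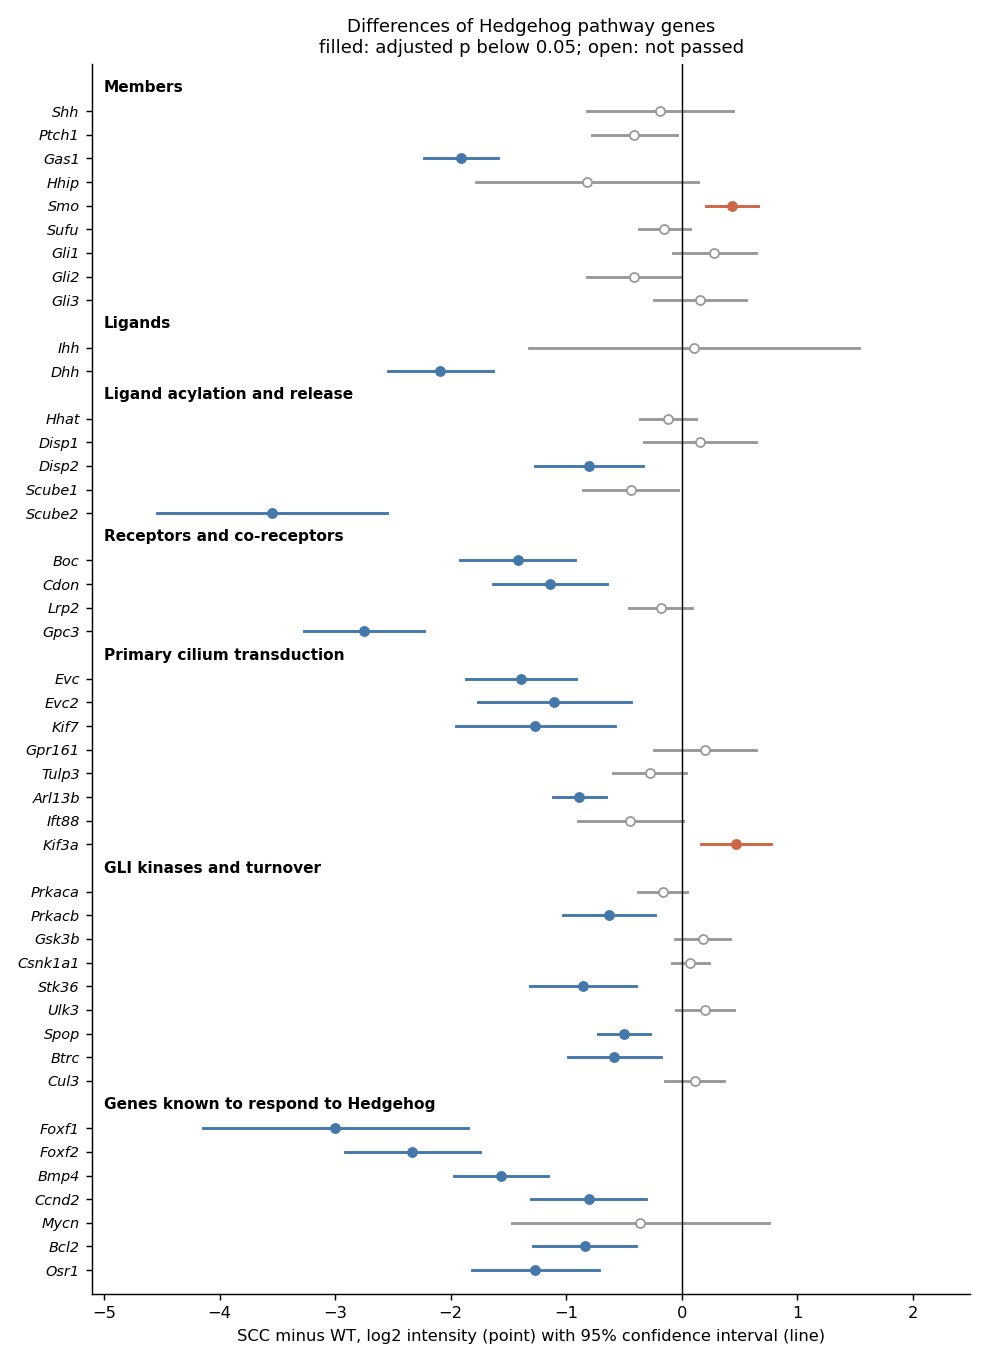
Difference between SCC and WT in log2 intensity (x axis; points) with its 95% confidence interval (lines) for the 9 Hedgehog genes and 35 other pathway genes by role. Filled points passed an adjusted p of 0.05 (orange higher, blue lower in SCC), open grey points did not. Scube2, Foxf1 and Gpc3 lie farthest to the left, and Smo and Kif3a are higher with a filled point.

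Over the other pathway genes as a whole, 21 of 35 passed, 1 higher and 20 lower (60%, beside 53.9% of all genes on their brightest probe; 57.1% lower beside 28.4%). The median difference was -0.63 log2 units, beside -0.04 over all genes. Of the 35, 12 (34.3%) were lower by 2-fold or more, beside 13.4% of all genes. The list was chosen with earlier results of these data known, so these shares describe it and do not test the pathway. Without SCC replicates 2 and 5, 26 passed, 2 higher and 24 lower (74.3%, beside 66.5% of all genes, with 68.6% lower beside 34.2%). The 24 include Ihh, which was then tested only through WT and from which no call is drawn. With slide as a fixed block 8 passed, all lower (22.9%, beside 14.9% of all genes that passed and 7.98% that were lower), and they were Dhh, Scube2, Gpc3, Evc, Arl13b, Stk36, Foxf2 and Bmp4.

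Genes known from other work to respond to Hedgehog were lower in 6 of 7 cases (85.7%, beside 28.4% of all genes that were lower). They are part of the list chosen with earlier results known. The readout genes Gli1, Ptch1 and Hhip are counted among the 9 and not here. Those 3 did not pass (limma, adjusted p = 0.167, 0.0646 and 0.139). Foxf1, a transcription factor of lung mesenchyme and endothelium, lay at 8.29 to 8.59 in WT and at 5.81, 6.71, 5.27, 6.09 and 3.41 in SCC replicates 1 to 5 (7.98-fold lower, limma, adjusted p = 0.00108). On the log2 scale that is -3.00, against -1.61 under normexp background correction (adjusted p = 1.1e-05). Its relative Foxf2 fell 5.03-fold (adjusted p = 9.09e-05), from 12.64 ± 0.19 to 10.31 ± 0.60 (SD, n = 5 each). Bmp4, a growth factor of the same mesenchyme, fell 2.96-fold (adjusted p = 0.000113), with SCC replicate 2 at 11.20 and the other SCC arrays at 10.39 to 10.59. The difference of -1.56 log2 units was -1.71 without SCC replicate 2 (adjusted p = 8.02e-06).

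The remaining responders fell less or were split. Osr1, a transcription factor of the foregut mesenchyme, was 2.40-fold lower (limma, adjusted p = 0.00212), though its second probe did not pass (-0.37 log2 units, adjusted p = 0.318). Bcl2, an inhibitor of apoptosis, was 1.79-fold lower (adjusted p = 0.00651) and Ccnd2, a cyclin of the G1 phase, 1.75-fold lower (adjusted p = 0.0136). Mycn, a driver of proliferation, did not pass (-0.36 log2 units, adjusted p = 0.573) and ranged from 5.39 to 8.60 in SCC. Ccnd1 is not analysed here.

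**Figure D3:**
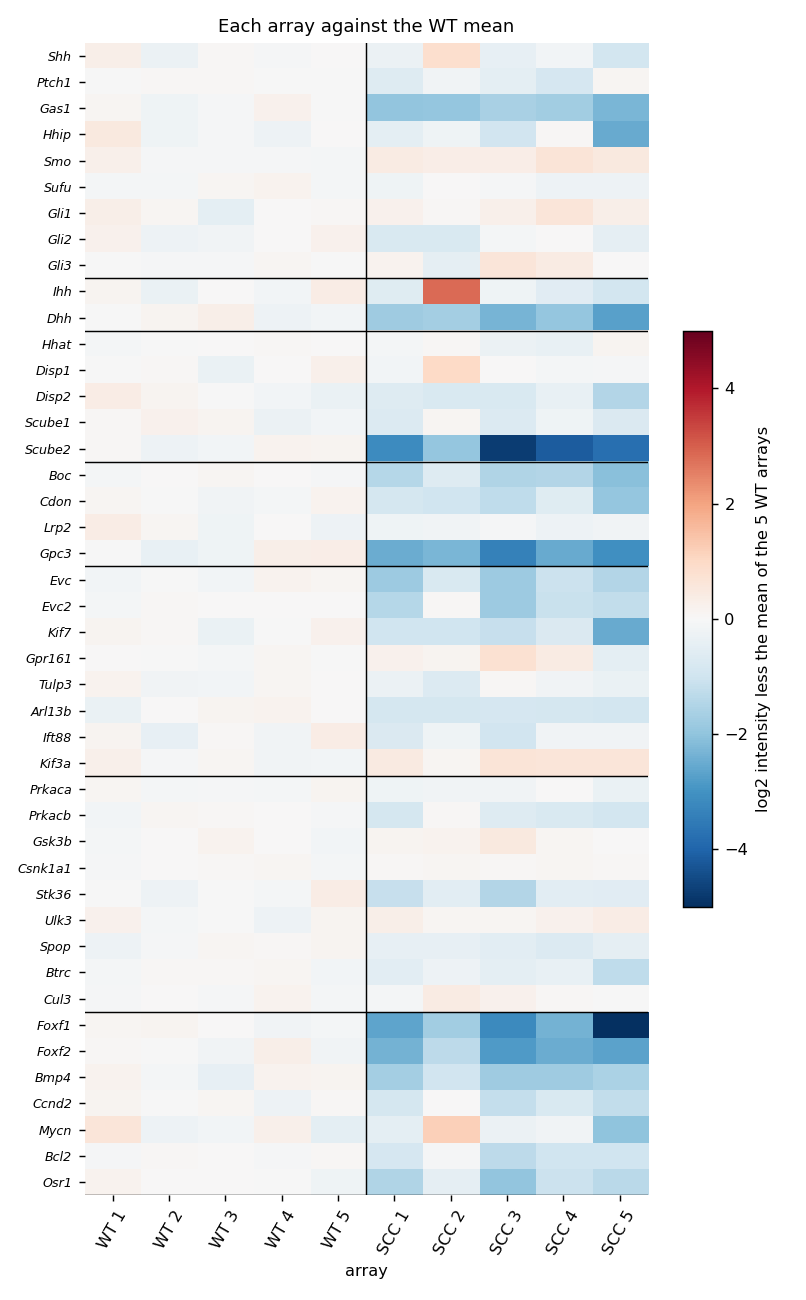
Log2 intensity on each array less the mean of the 5 WT arrays (colour) for the 9 Hedgehog genes (top block) and 35 other pathway genes (rows), with lines between roles and between the groups. Blue is lower and red higher than WT. SCC replicate 2 is paler than the other SCC arrays in Scube2, Evc2 and Ccnd2, and red in Ihh.

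Markers of the cells that hear the ligand moved as well. For comparison with the counts below, 28.4% of all genes were lower and 25.5% higher. Of 8 fibroblast markers, 4 were lower in SCC and 2 higher, and the mean level of the list was 13.21 to 13.38 in WT and 11.91 to 12.91 in SCC. Tcf21 (-3.34 log2 units, limma, adjusted p = 0.000229) and Pdgfra (-2.10, adjusted p = 0.00041), which mark resident lung fibroblasts, fell with Dcn and Lum, while the collagens Col1a1 (0.66, adjusted p = 0.00581) and Col3a1 (0.53, adjusted p = 0.0062) rose. Another collagen of the list, Col1a2, did not pass (-0.25, adjusted p = 0.0892). Of 6 smooth muscle markers, 4 were lower (list level 11.80 to 12.26 in WT, 11.07 to 11.81 in SCC). All 5 endothelial markers were lower (13.76 to 13.99 in WT, 11.22 to 12.42 in SCC). All 3 proliferation markers were higher. Every marker of these 4 lists was well above background on all 10 arrays. The part of these shifts in the fall of Gas1, Boc, Foxf1 or the other genes was not tested.

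The genes with the profile most like that of each changed member were sought among 14109 genes, by the root mean square difference of log2 values over the 10 arrays after subtracting the WT mean. For Gas1 they were Gng8 (0.21), Gm11627 (0.22) and Lrat (0.23, a retinol-storing enzyme). Their differences between SCC and WT were -1.81, -2.06 and -2.01 log2 units, beside -1.91 for Gas1. For Smo they were St13 (0.05), Cct6b (0.08), Mrpl36 (0.08) and Zcchc9 (0.08), with differences of 0.46, 0.41, 0.41 and 0.42, beside 0.44 for Smo.

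**Figure D4:**
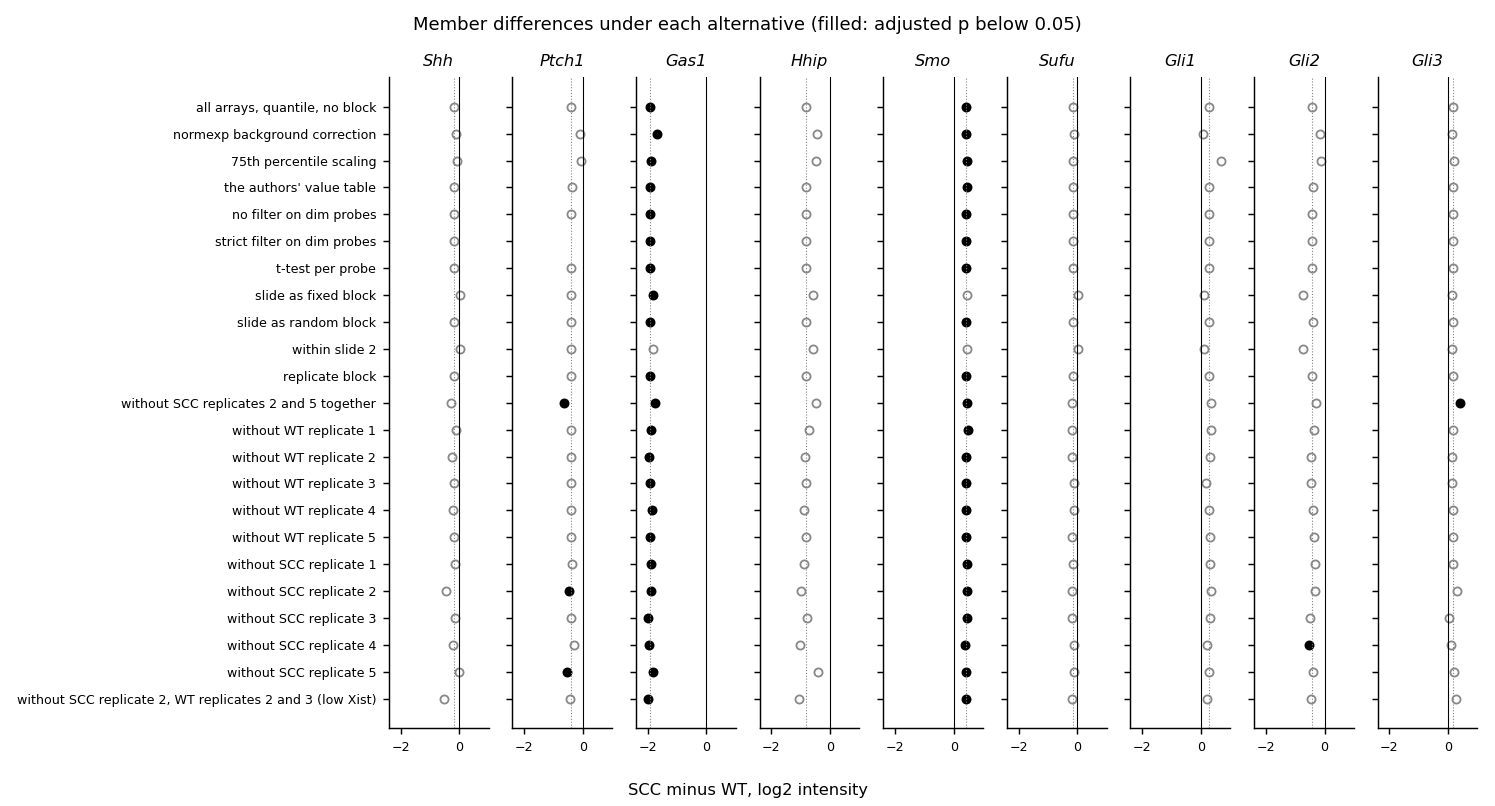
Difference between SCC and WT in log2 intensity (x axis) for each Hedgehog gene (columns) under each processing alternative or set of arrays (rows). Filled points had an adjusted p below 0.05, the dotted line is the value over all arrays and the solid line is 0. Gas1 is filled in every row except within slide 2, and Smo in every row except slide as a fixed block and within slide 2.

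The slide that carried each array was tied to the groups. Slide 1 carried only WT arrays (replicates 1 to 4) and slide 3 only SCC arrays (replicates 4 and 5). Slide 2 held both groups, with WT replicate 5 and the first 3 SCC replicates. Within slide 2, with 1 WT array and the spread taken from the SCC arrays, no probe passed (limma; 5835 probes, 19.2%, had an unadjusted p below 0.05). The differences there were -1.81 for Gas1, 0.46 for Smo, 0.11 for Gli1 and -0.40 for Ptch1, each against a single WT array, so they say nothing of the spread in WT. Under 75th percentile scaling the median of all tested probes moved from -0.09 to 0.03, a shift of 0.12 log2 units, and the share of passing probes that were higher moved from 45.6% to 51.5%. Each of the 9 genes kept its direction relative to that median.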

How the data were processed

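Per the labels, RNA of 5 WT lungs and 5 SCCs had been labelled with Cy3, and each sample was hybridised to its own array. Groups and replicate numbers come from the sample titles. The labels do not say that replicates came from separate mice, so p-values measure the spread between these samples. The file headers show that the authors extracted spot signals with Agilent Feature Extraction (version 12), and the deposited files hold a background-subtracted intensity per spot. The authors also deposited a table of log2 values, which matched log2 quantile-normalized intensity at r of at least 0.9999 on every array. It served to choose each gene's probe and as an alternative.

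Outlier-flagged and control spots were dropped, spots of a probe averaged as log2 intensity and the 41174 probes quantile-normalized. Quantile normalization and the log2 scale follow the methods of the study. A probe was tested if well above background on at least 4 of 5 arrays of a group, which kept 30374. No probe was saturated. The number of arrays limits the precision. Differences (SCC minus WT) came from limma 3.58.1 (R 4.3.3) fitted over all 10 arrays without covariates, in place of the one-way analysis of variance of the methods, with Benjamini-Hochberg adjustment. The fit was tested on simulated data. "Passed", "rose" and "fell" mean an adjusted p below 0.05. Accessions were paired with symbols through RefSeq (GRCm38.p6), which named 28223 probes (68.5%). Beyond the choice of each gene's brightest probe, levels are not compared between probes. Stk11 (Lkb1) had no paired probe and is not analysed here, so the deletion itself is not checked.

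The Hedgehog genes, the 37 other pathway genes (35 with a tested probe) and the marker lists were chosen with earlier results of these data known. Named genes are all members, the other pathway genes, the markers, and the 4 profiles nearest to each changed member. Of the genes so chosen, 1 pathway gene, left out of the counts and plots, and 1 near profile are not reported here. Markers of alveolar type 2 (3 of 5 lower), alveolar type 1 (2 lower and 1 higher of 3), club (3 of 3 lower), neutrophil (3 of 5 higher), macrophage (1 higher and 2 lower of 4), T (2 of 3 lower), B (3 of 3 lower) and cardiac muscle cells (3 of 3 lower) were also read. Beside these counts, 28.4% of all genes were lower and 25.5% higher. Alternatives were normexp background correction, 75th percentile scaling, the authors' table, other filters on dim probes, a t-test per probe, slide as a block, slide 2 alone, a replicate block, other probes and leaving out arrays. Leaving out the arrays with low Xist was added after seeing the data.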

Additional observations from a re-analysis of the deposited data

Results flagged for a closer look

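In 14 of 116 groups of 5 arrays, 1 array lay apart from the other 4 by more than the 95% limit of Dixon's test, which chance alone gives in about 1 group in 20. Of these, 9 concerned SCC replicate 2 and 2 concerned SCC replicate 5. The value given is the gap to the nearest array as a share of the group's range.

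Among the Hedgehog genes, Smo had WT replicate 1 high at 12.91 (share 0.815; others 12.56 to 12.63), and Gli3 had WT replicate 4 high at 8.92 (share 0.728; others 8.77 to 8.81). SCC replicate 2 was high for Ihh at 7.50 (share 0.819), for Disp1 at 9.39 (share 0.856; others 8.28 to 8.44) and for Bmp4 at 11.20 (share 0.755). SCC replicate 5 was low for Kif7 at 5.35 (share 0.757; others 6.72 to 7.16) and for Btrc at 6.14 (share 0.723; others 6.87 to 7.16).

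In the mean levels of marker lists, SCC replicate 2 was high for endothelial (12.42, share 0.768) and alveolar type 2 markers (14.95, share 0.721). It was low for squamous (9.37, share 0.906), neutrophil (10.65, share 0.923), macrophage (12.40, share 0.715) and proliferation markers (9.45, share 0.791). WT replicate 4 was low for smooth muscle markers at 11.80 (share 0.891; others 12.21 to 12.26).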

How the results depend on the processing

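With slide as a fixed block, 1 Hedgehog gene (Gas1), 8 other pathway genes and 3814 probes passed; within slide 2 alone, 0, 0 and 0 passed by limma. Under both, Smo was 0.46, no longer past the threshold, and Shh (0.021), Sufu (0.011), Lrp2 (0.10) and Mycn (0.64) changed sign. Gas1 was -1.81 within slide 2 and did not pass. The cause was not tested, but both settings take the difference from 4 arrays. As a random block, slide had a correlation of -0.02.

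Without SCC replicates 2 and 5, 4 Hedgehog genes passed, with Ptch1 at -0.65 and Gli3 at 0.40, and Ihh (-0.46) and Disp1 (-0.055) changed sign. They did so too without the 3 arrays of low Xist (-0.69 and -0.14). Leaving out 1 array at a time, 2 to 3 Hedgehog genes, 20 to 23 other pathway genes and 12640 to 17936 probes passed. The 23, without SCC replicate 2, include Ihh, which was then tested only through WT and from which no call is drawn. Over these omissions Ptch1 ranged from -0.54 to -0.30, Gli2 from -0.52 to -0.32, Ihh from -0.58 to 0.36, Disp1 from -0.052 to 0.22 and Mycn from -0.74 to 0.061. The other Sufu probes gave 1.20 and 0.63.

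Samples with the same replicate number did not deviate together (correlations of -0.10 to 0.01, and 0 of 5 WT arrays correlated best with their own number). The labels do not say whether the numbers pair samples, and these correlations cannot exclude it. With a replicate block 2 Hedgehog genes, 21 other pathway genes and 12374 probes passed. Of the alternative values for the Hedgehog genes, 187 kept their direction and side of the threshold, 6 changed sign, 5 passed anew and 3 no longer passed.

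Dim signal limits Ihh, Ptch1 and Gli1, whose levels lay near the lowest signals well above background (3.81 to 4.32 on 9 arrays, 2.14 on SCC replicate 5).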
